A study of Mus musculus with 4 samples.

Results

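The genes described here encode AMP-activated protein kinase (AMPK) and the kinases that switch it on, in T29 cells, a mouse thymic lymphoma line that the series' design text calls Ikaros-deficient. They are 8 of the 18193 genes with a probe set naming 1 gene: Prkaa1 and Prkaa2 (catalytic α subunits), Prkab1 and Prkab2 (β subunits), Prkag1 and Prkag2 (γ subunits), Stk11 (LKB1) and Camkk2. The members were listed by gene symbol, and the probe set that stands for each gene was chosen by its mean level over the 4 arrays; these levels are given as a description, with no test. RNA was measured on 4 arrays. The 4OHT group comprised 2 samples of T29 cells transduced with MigR1-MLER, an inducible version of dominant-negative Mastermind, and kept in 100 nM 4OHT, a tamoxifen metabolite, for 24 h. The ethanol group comprised 2 samples of the same line with the same retroviral construct, kept in the solvent for 24 h. Mastermind helps Notch to activate transcription, and the dominant-negative form blocks this. Every sample was of 1 cell line and carried the construct, so an effect of 4OHT of its own cannot be told apart from that of the construct. The labels do not name separate cultures. The p-values therefore rest on a spread between samples that may be technical only.

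AMPK is the cell's energy sensor. Each complex holds 1 catalytic α subunit, 1 β subunit, which is the scaffold and carries a carbohydrate-binding module, and 1 γ subunit, which binds AMP, ADP and ATP. When AMP rises, the upstream kinase LKB1 keeps a threonine in the activation loop of α phosphorylated, and CAMKK2 can do the same when calcium rises. Active AMPK slows lipid and protein synthesis through acetyl-CoA carboxylase and mTORC1 and favours catabolism and autophagy. In lymphocytes the α1 subunit, the product of Prkaa1, is known as the main catalytic form, whereas α2, the product of Prkaa2, is best known from muscle, heart and liver. LKB1 is needed in developing thymocytes.

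Promoters are shown as a description for 4 genes named in the results. These are Prkaa2, which was higher with 4OHT, its paralogue Prkaa1, Prkab2, which was lower, and Plpp3, the gene beside Prkaa2. The promoters are the 250 bases before the annotated start, 5′ to 3′ on the strand of the gene, from RefSeq, build GRCm38.p6. The windows lie at chr4:105109899-105110148 on the minus strand for Prkaa2, chr15:5143611-5143860 on the plus strand for Prkaa1, chr3:97657962-97658211 on the plus strand for Prkab2 and chr4:105157097-105157346 on the plus strand for Plpp3. Capitals mark the GC box GGGCGG on either strand, the motif of SP1-family factors, chosen after the sequences were seen.
Prkaa2: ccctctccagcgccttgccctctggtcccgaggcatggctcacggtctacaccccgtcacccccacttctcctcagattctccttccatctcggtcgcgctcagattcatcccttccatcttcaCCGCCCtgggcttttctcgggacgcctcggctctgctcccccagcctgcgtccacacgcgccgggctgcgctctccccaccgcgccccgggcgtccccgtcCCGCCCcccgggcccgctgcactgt
Prkaa1: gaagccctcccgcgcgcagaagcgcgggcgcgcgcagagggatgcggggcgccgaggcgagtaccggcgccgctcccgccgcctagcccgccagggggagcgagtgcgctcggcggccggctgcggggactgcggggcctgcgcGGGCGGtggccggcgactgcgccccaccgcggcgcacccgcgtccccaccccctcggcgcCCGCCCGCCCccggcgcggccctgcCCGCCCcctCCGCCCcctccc
Prkab2: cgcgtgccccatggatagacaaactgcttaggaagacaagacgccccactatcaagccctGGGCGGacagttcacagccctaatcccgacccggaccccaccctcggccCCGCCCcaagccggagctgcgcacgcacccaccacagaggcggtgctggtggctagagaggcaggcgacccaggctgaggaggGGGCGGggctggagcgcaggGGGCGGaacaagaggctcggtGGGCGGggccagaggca
Plpp3: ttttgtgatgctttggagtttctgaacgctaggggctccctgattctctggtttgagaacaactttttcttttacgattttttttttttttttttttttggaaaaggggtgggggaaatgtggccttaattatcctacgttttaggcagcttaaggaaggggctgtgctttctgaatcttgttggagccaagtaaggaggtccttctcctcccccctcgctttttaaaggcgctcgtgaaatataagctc

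The windows of Prkaa2, Prkaa1 and Prkab2 were rich in G and C, at 70.0%, 85.2% and 69.2% of bases, and held 24, 45 and 18 CpG dinucleotides. That of Plpp3 was at 42.4% with 6 CpG dinucleotides. GC boxes numbered 2 in Prkaa2, 5 in Prkaa1, 5 in Prkab2 and 0 in Plpp3. At least 1 was held by 7 of the 10 windows of the 8 genes and by 32.7% of the 32851 promoter windows in the RefSeq table. All 8 genes had an entry, 7 with 1 promoter and Prkag2 with 3. The RBPJ core TGGGAA, the letters bound by the DNA-binding partner of Notch, was found on either strand in 1 of these 10 windows, a Prkag2 promoter, and in 21.6% of all windows. The E-box CACGTG, the site of MYC-family factors, was in 0 of the 10 and in 6.02% of all windows, and the FOXO site GTAAACA in 0 of the 10 and in 3.17%. No letters of 1 motif contain those of another. Absence of a motif says only that its letters are not in these 250 bases.

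Of the 8 genes, 1 was higher with 4OHT (Prkaa2), 1 was lower (Prkab2) and 6 did not pass. A pass means an adjusted p under 0.05 in limma with Benjamini-Hochberg adjustment over all 11581 genes tested, those with a mean log2 value of at least 4.81. All 8 lay above that floor in both groups. In the same fit 7.47% of tested genes passed, 3.9% higher and 3.57% lower. The genes were brought together with results of these data known, so their count is a description and nothing is read from its distance to that background. The groups did not overlap for 5 of the 8 genes, 4 with the 4OHT samples above and 1 with them below. Over all tested genes, the groups did not overlap for 56.9%, with 4OHT above for 26.7% and below for 30.2%. The median log2 change of the 8 genes, 4OHT minus ethanol, was 0.11, beside -0.01 over all genes tested.

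**Figure D1:**
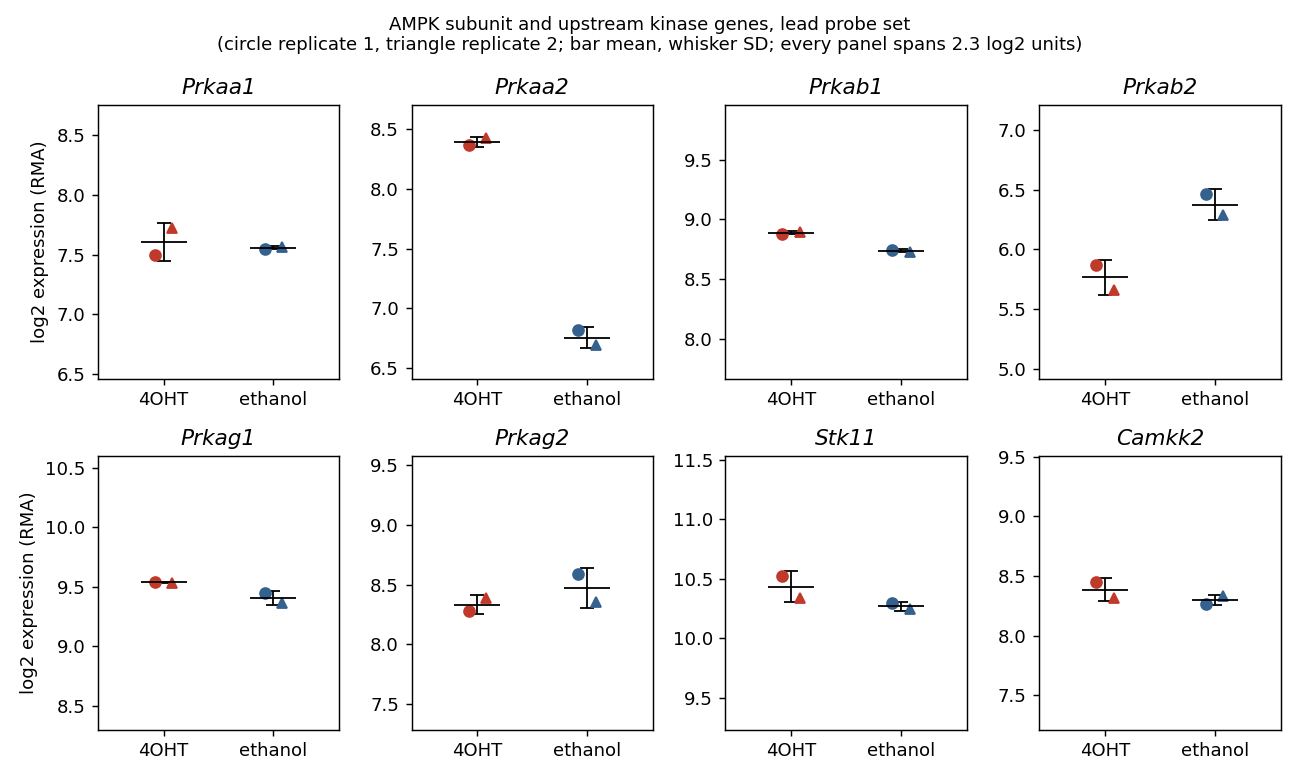
Log2 expression (RMA, vertical axis) of the 8 genes in the 2 4OHT samples (red) and the 2 ethanol samples (blue), with the mean and SD, each panel spanning the same number of log2 units. Prkaa2 lies at 8.37 and 8.43 with 4OHT against 6.81 and 6.69 with ethanol, Prkab2 lies lower with 4OHT, and the other 6 genes differ by at most 0.16 between group means.

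Among the α subunits, Prkaa2 rose and Prkaa1 did not pass. Prkaa2 (probe set 1429463_at) was at log2 values of 8.37 and 8.43 in the 4OHT samples, against 6.81 and 6.69 in the ethanol samples. Both 4OHT samples stood above both ethanol samples, and the gap between the groups was many times the spread within either. The means were 8.40 ± 0.04 with 4OHT and 6.75 ± 0.09 with ethanol (SD, n = 2 each), a log2 change of 1.64 ± 0.09 (SE), or 3.13-fold higher with 4OHT (limma adjusted p = 0.00428). Its rise ranked 12 among the 11581 tested genes. The call was kept under all 12 alternative settings, including each of the 4 fits without 1 array, with changes from 1.18 to 1.71 and adjusted p from 2.45e-05 to 0.0478.

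The other Prkaa2 probe sets moved the same way. Probe set 1434766_at was at 7.87 and 7.64 with 4OHT, against 6.50 and 6.10 with ethanol, 2.74-fold higher (log2 change 1.46 ± 0.16 SE, limma adjusted p = 0.0152 over all 34945 probe sets naming 1 gene). Probe set 1429464_at lay below the testing floor, at 4.06 and 3.55 with 4OHT against 3.42 and 3.32 with ethanol, and did not pass in that fit (adjusted p = 0.280). All 3 probe sets therefore had the 4OHT samples above the ethanol samples, with a smaller change for the dimmest.

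Prkaa1 (1437539_at, its single probe set) was at 7.49 and 7.72 with 4OHT, against 7.55 and 7.57 with ethanol. The ethanol values fell inside the range of the 4OHT values. The log2 change was 0.05 ± 0.11 (SE, adjusted p = 0.815), with a 95% confidence interval of -0.22 to 0.32, and its sign turned to -0.0061 after quantile normalization and to -0.065 without 4OHT replicate 2. The interval of the lead Prkaa2 probe set, 1.42 to 1.87, lay wholly above that of Prkaa1. The dim Prkaa2 probe set 1429464_at changed by 0.43 ± 0.17 (SE), and the difference between the 2 genes was not tested. Levels of different probe sets cannot be set against each other on these arrays, so the share of α1 and α2 transcripts in either group is not given.

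Of the β subunits, Prkab2 was lower with 4OHT and Prkab1 did not pass. Prkab2 (1435874_at) was at 5.87 and 5.66 with 4OHT, against 6.47 and 6.29 with ethanol, and the groups did not overlap. Means of 5.77 ± 0.15 with 4OHT and 6.38 ± 0.13 with ethanol (SD, n = 2 each) gave a log2 change of -0.61 ± 0.12 (SE), 1.53-fold lower with 4OHT (limma adjusted p = 0.0407). This call rested on all 4 arrays: it was lost without ethanol replicate 1 (adjusted p = 0.149), ethanol replicate 2 (0.0863), 4OHT replicate 1 (0.123) and 4OHT replicate 2 (0.146), and with the mean of the probe sets of the gene (log2 change -0.39, adjusted p = 0.0548). The direction held in all of these fits.

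A further Prkab2 probe set, 1435875_at, also had the 4OHT samples below, at 4.78 and 4.85 against 5.33 and 5.23 with ethanol (log2 change -0.46). Probe set 1442001_at was at 5.01 and 5.20 with 4OHT, against 5.24 and 5.18 with ethanol, and the groups overlapped. In the fit over all 34945 probe sets, no Prkab2 probe set passed (adjusted p = 0.0646, 0.0864 and 0.705 for 1435874_at, 1435875_at and 1442001_at). All 3 were dim, with means from 5.05 to 6.07, and RMA understates folds near background.

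Prkab1 (1424119_at) was at 8.88 and 8.90 with 4OHT, against 8.75 and 8.73 with ethanol. The 4OHT samples were above in this and in its other probe set, 1452457_a_at, at 8.14 and 8.10 against 7.92 and 7.80 with ethanol. The changes were small, 0.15 ± 0.08 (SE, adjusted p = 0.323) for the first, with a 95% confidence interval of -0.06 to 0.35, and 0.26 ± 0.11 (SE, adjusted p = 0.279 over all probe sets) for the other. The 95% confidence interval of the lead Prkab2 probe set, -0.90 to -0.32, lay wholly below that of the lead Prkab1 probe set. Prkab2 probe set 1442001_at changed by only -0.11 ± 0.11 (SE), and the difference between the genes was not tested.

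Neither γ subunit passed. Prkag1 (1417690_at) was at 9.54 and 9.53 with 4OHT, against 9.45 and 9.36 with ethanol, a log2 change of 0.13 ± 0.09 (SE, adjusted p = 0.394, 95% confidence interval -0.08 to 0.35). Its other probe set, 1433533_x_at, overlapped between groups, at 7.13 and 7.28 with 4OHT against 7.22 and 7.09 with ethanol. Prkag2 (1451140_s_at) was at 8.28 and 8.39 with 4OHT, against 8.59 and 8.36 with ethanol, a change of -0.14 ± 0.11 (adjusted p = 0.486, interval -0.42 to 0.14). The other 3 Prkag2 probe sets had changes between -0.08 and 0.05.

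The upstream kinases did not pass either. Stk11, which encodes LKB1 (1418644_a_at), was at 10.52 and 10.34 with 4OHT, against 10.30 and 10.24 with ethanol, and the groups did not overlap, but the change of 0.16 ± 0.10 (SE, adjusted p = 0.365) had a 95% confidence interval of -0.09 to 0.41. A dim Stk11 probe set, 1448062_at, moved the other way by -0.10. Camkk2, the calcium-dependent AMPK kinase (1455401_at), was at 8.45 and 8.32 with 4OHT, against 8.27 and 8.33 with ethanol, with overlapping groups and a change of 0.09 ± 0.09 (SE, adjusted p = 0.614, interval -0.15 to 0.32). Its other 3 probe sets had changes from -0.13 to 0.02, and its sign turned to -0.016 with the mean of its probe sets.

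**Figure D2:**
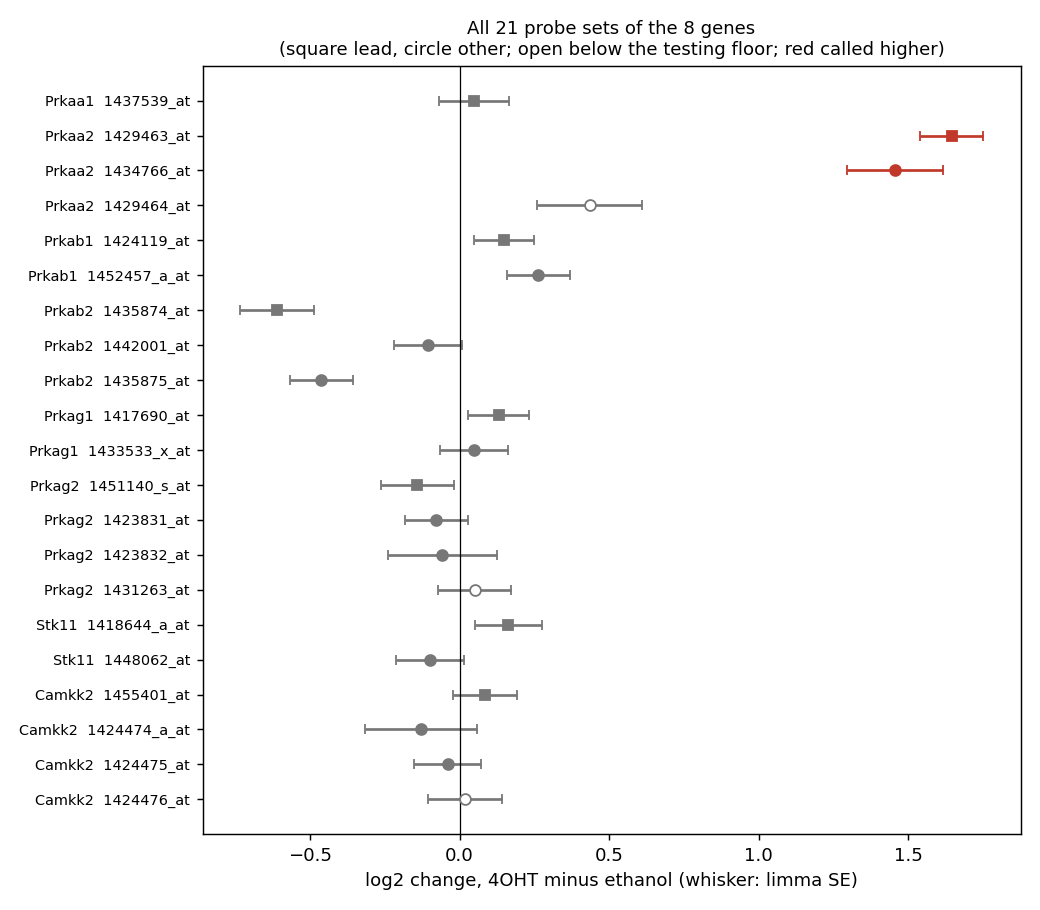
Log2 change, 4OHT minus ethanol (horizontal axis, whiskers SE), of all 21 probe sets of the 8 genes. The 2 brighter Prkaa2 probe sets, at 1.64 and 1.46, lie to the right of all others, the dim Prkaa2 probe set is at 0.43, the 3 Prkab2 probe sets lie between -0.61 and -0.11, and the probe sets of the other 6 genes lie between -0.14 and 0.26.

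Across all 21 probe sets of the 8 genes, 18 were at or above the floor, and 2 passed in the fit over all 34945 probe sets, where 2.48% passed. Both belonged to Prkaa2. The groups did not overlap for 10 of the 21, beside 47.6% of all probe sets. Ethanol replicate 1 was above ethanol replicate 2 in 18 of the 21 probe sets. It was above for 45.3% of all tested genes, each counted by 1 probe set. The units differ, and probe sets of 1 gene are not independent, so nothing is read from the 2 shares. The widest such gaps were in Camkk2 1424474_a_at, at 8.51 and 7.95, and in Prkag2 1423832_at, at 7.62 and 7.07. Over the 8 lead probe sets the gap between replicates was at most 0.23 in either group.

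**Figure D3:**
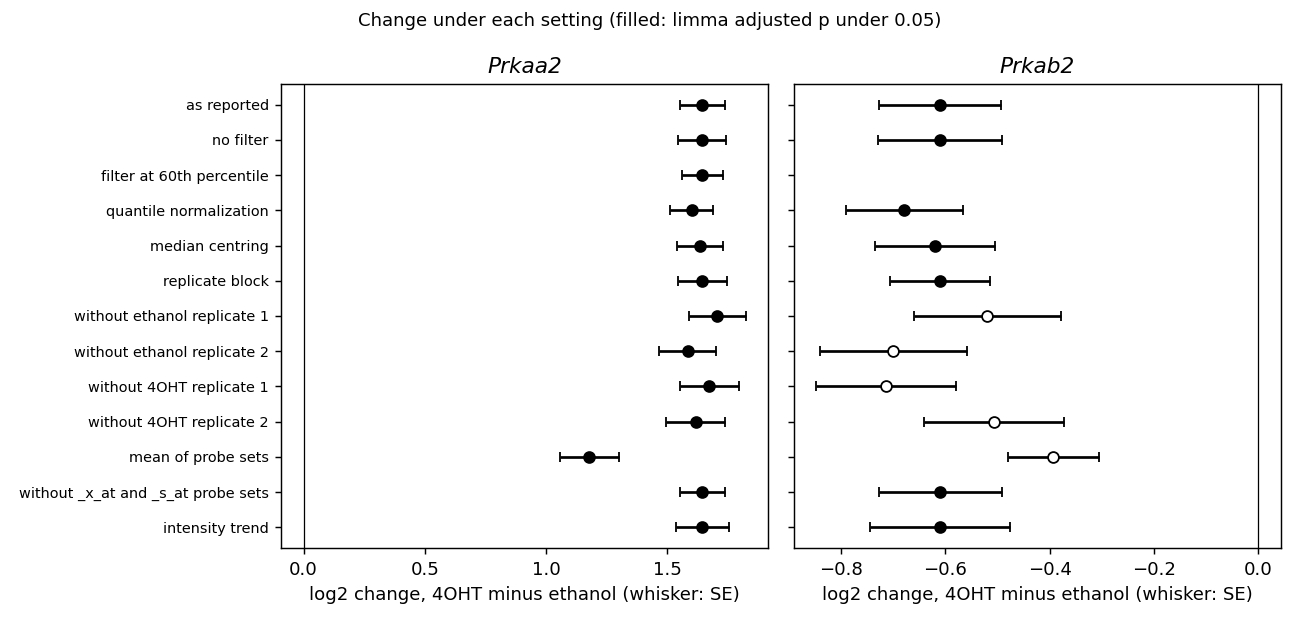
Log2 change, 4OHT minus ethanol (horizontal axis, whiskers SE), of Prkaa2 and Prkab2 under the reported fit and each alternative setting; filled points had a limma adjusted p under 0.05. Prkaa2 is filled throughout, from 1.18 to 1.71, and Prkab2 is open in 5 settings and absent with the filter at the 60th percentile, where it was too dim to be tested.

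The genes with the most similar profiles to Prkaa2 were Tctex1d1, a dynein light chain family gene, Rhbdl3, a rhomboid-like gene, and Npnt, which encodes the matrix protein nephronectin. Likeness was the root mean square distance between log2 profiles over the 4 arrays, each centred on its mean, among 11087 tested genes. The distances were 0.10, 0.10 and 0.11, and all 3 genes were higher with 4OHT. Tctex1d1 was at 7.07 and 6.89 with 4OHT, against 5.49 and 5.42 with ethanol. It lies on chromosome 4, as does Prkaa2, 12 measured genes away among the 1095 on that chromosome. The genes nearest in profile to Prkab2 were Bysl, which acts in small ribosomal subunit assembly, Heatr3, which acts in the import of a ribosomal protein, and Msantd3. Their distances were 0.02, 0.04 and 0.04, and all 3 were lower with 4OHT. With 4 arrays in 2 groups, many genes share such a profile. The shared direction of each set of 3 genes follows from how they were chosen and is not a separate result.

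The gene directly beside Prkaa2 was also higher. Plpp3, which encodes a lipid phosphate phosphatase, was at 9.09 and 8.74 with 4OHT, against 7.29 and 6.92 with ethanol (1429514_at; log2 change 1.81, limma adjusted p = 0.0116), and its other probe set, 1448908_at, was 2.99-fold higher. Without 4OHT replicate 1 the call of Plpp3 was lost (log2 change 1.63, adjusted p = 0.0763). In RefSeq the starts of the 2 genes lie 47.4 kb apart on opposite strands, so that they are transcribed away from each other. Of the 5 measured genes on each side of Prkaa2, 5 were tested, and Plpp3 was the 1 that passed. Usp24, on the far side of Plpp3, was at 8.86 and 8.88 with 4OHT against 8.76 and 8.99 with ethanol, and Oma1, on the other side of Prkaa2, had a change of 0.19 (adjusted p = 0.255). C8a and C8b, between Prkaa2 and Oma1, were below the floor. Among the 10 measured neighbours of Prkab2 on chromosome 3, 6 were tested and 0 passed in limma (3 at an unadjusted p under 0.05). Over all 11581 tested genes, 2958 had an unadjusted p under 0.05. Neighbours were looked at after the changes of the 2 genes were known, and whether genes side by side move together was not tested.

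**Figure D4:**
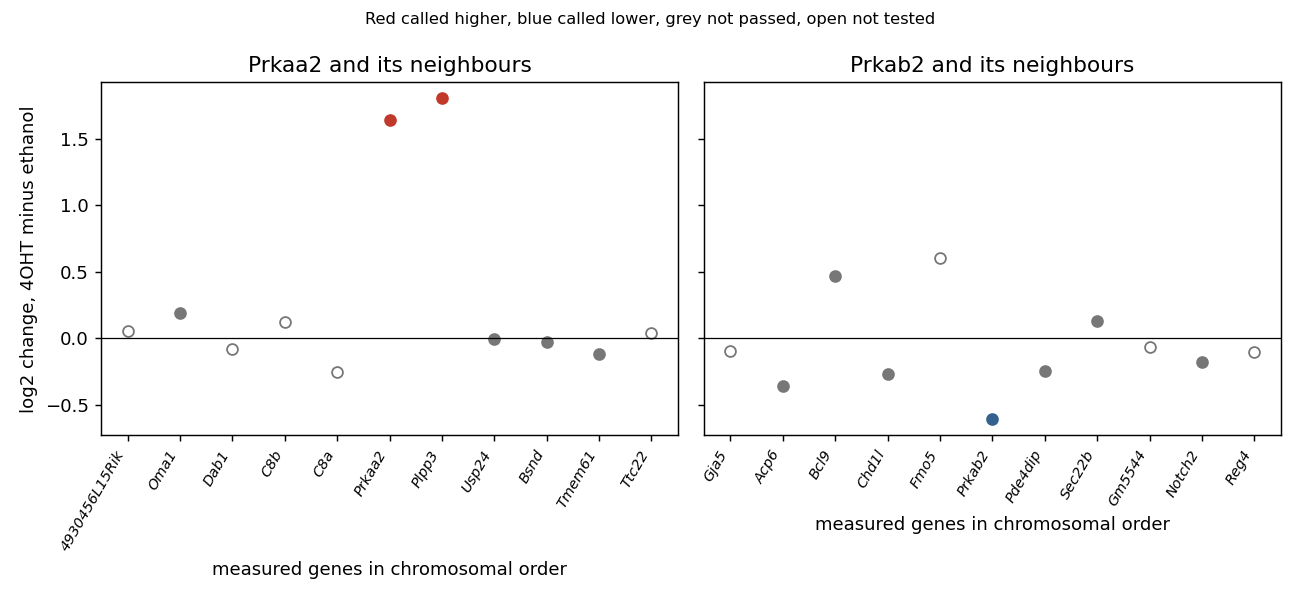
Log2 change, 4OHT minus ethanol (vertical axis), of Prkaa2 and Prkab2 and the 5 measured genes on each side in chromosomal order. Prkaa2 at 1.64 and Plpp3 at 1.81 stand side by side with the other neighbours of Prkaa2 between -0.26 and 0.19, and 0 neighbours of Prkab2 passed.

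In 8 lists of genes around AMPK, written from textbook knowledge, 78 of 94 genes were tested, 4 were higher, 3 were lower and 71 did not pass. These 7 are close in share to the 7.47% of all tested genes. The median over the 78 genes was 0.03, beside -0.01 over all genes, but the lists differed in sign, with medians from -0.27 to 0.22. None of 5 tested LKB1 partners and other upstream kinases passed in limma, nor any of 8 AMPK-related kinases that LKB1 activates. Their medians were 0.13 and 0.22, with changes above 0 for 4 of 5 and 7 of 8 genes, beside 5519 of all 11581 tested genes. The nearest to passing were Stradb, the LKB1 pseudokinase partner (log2 change 0.18, adjusted p = 0.259), Cab39l, a scaffold of that complex (-0.27, adjusted p = 0.288), and the kinases Sik2 (0.34, adjusted p = 0.101) and Mark4 (0.32, adjusted p = 0.151). At an unadjusted p under 0.05, the first list had 0 genes and the other had 2, Sik2 and Mark4, beside 2958 of all 11581 tested genes. With the mean of its probe sets, the change of Sik2 was 0.097 (limma adjusted p = 0.516). Prkag3, the γ subunit gene known from muscle, was below the floor, at 3.44 and 3.23 with 4OHT against 3.13 and 3.45 with ethanol.

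Of 10 tested modulators of AMPK activity, 2 rose and 0 fell, beside 3.9% higher and 3.57% lower of all tested genes. Sesn3, a sestrin that acts upstream of AMPK and mTORC1, was at 9.03 and 9.08 with 4OHT, against 8.54 and 8.47 with ethanol, 1.46-fold higher (adjusted p = 0.0295). Ppm1e, a phosphatase that can remove the activating phosphate from α, was at 6.63 and 6.62 with 4OHT, against 5.997 and 6.17 with ethanol, 1.46-fold higher (adjusted p = 0.0349). Both calls were lost in each fit without 1 array, and that of Ppm1e also after quantile normalization (adjusted p = 0.0501). At an unadjusted p under 0.05, 4 members of this list were higher and 2 lower. Of all 11581 tested genes, 1426 were higher and 1532 lower at that p. Fnip1, which encodes a folliculin-interacting protein that binds AMPK, had the largest change of the list and missed the call (0.61, adjusted p = 0.0503). It passed with the filter at the 60th percentile (0.0364) and with an intensity trend (0.0346). Without the _x_at and _s_at probe sets its change was 0.24 (adjusted p = 0.167). With the mean of its probe sets the change was 0.30 (adjusted p = 0.134). Fnip1 was named after its value was seen. Known actions of Sesn3 and Ppm1e on AMPK run in opposite directions.

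Among 8 tested adenine nucleotide enzymes, 2 fell and 0 rose, beside 3.57% lower and 3.9% higher of all tested genes. The median of the list was -0.27. At an unadjusted p under 0.05, 1 was higher and 3 lower, beside 1426 and 1532 of all 11581 tested genes. Adk, adenosine kinase, which makes AMP from adenosine, was at 10.51 and 10.40 with 4OHT, against 11.14 and 11.17 with ethanol, 1.63-fold lower (log2 change -0.70 ± 0.09 SE, adjusted p = 0.0186). Ak5, an adenylate kinase, was at 5.04 and 5.26 with 4OHT, against 5.86 and 6.10 with ethanol, 1.78-fold lower (adjusted p = 0.0279). With the mean of their probe sets these calls were lost and the changes were -0.31 for Adk (adjusted p = 0.0871) and -0.47 for Ak5 (adjusted p = 0.0526). They were also lost in each fit without 1 array.

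Over all tested genes 7.47% passed in limma, 3.9% higher and 3.57% lower, the background for the counts of targets that follow. Of the targets of AMPK, 0 of 9 tested lipid metabolism genes and 0 of 14 mTORC1 and autophagy genes passed in limma. At an unadjusted p under 0.05 there were 3 in the first list and 1 in the other, beside 2958 of all 11581 tested genes. Mlycd, malonyl-CoA decarboxylase, had a log2 change of 0.30 (adjusted p = 0.096), Gpam, a glycerol-3-phosphate acyltransferase, -0.31 (adjusted p = 0.130), Ulk1, the autophagy-initiating kinase, 0.50 (adjusted p = 0.112) and Rheb, the GTPase that activates mTORC1, -0.21 (adjusted p = 0.222). In the list of glucose metabolism targets, 1 of 10 rose, Txnip, which restrains glucose uptake and is degraded after AMPK phosphorylation, at 10.75 and 10.14 with 4OHT against 9.16 and 9.01 with ethanol (adjusted p = 0.0269). The list median was -0.22, and 8 of the 10 had a change below 0, beside 6062 of all 11581 tested genes. At an unadjusted p under 0.05, 1 was higher and 1 lower. The largest negative changes, named after their values were seen, were those of Pfkfb3 (-0.96, adjusted p = 0.221) and Slc2a1 (-0.95, adjusted p = 0.178). Pfkfb3, which makes an activator of glycolysis, was at 7.68 and 8.91 with 4OHT, against 8.98 and 9.53 with ethanol. The glucose transporter gene Slc2a1 was at 8.99 and 10.11 with 4OHT, against 10.34 and 10.66 with ethanol. Without 4OHT replicate 1 the changes were smaller, -0.35 for Pfkfb3 and -0.39 for Slc2a1. Of 14 tested transcription and mitochondrial targets, Foxo3, a forkhead factor, was 1.503-fold higher (adjusted p = 0.0267) and Ppargc1b, a co-activator of mitochondrial genes, 1.37-fold lower (adjusted p = 0.0491). The call of Ppargc1b was lost with no filter (adjusted p = 0.0661) and without the _x_at and _s_at probe sets (adjusted p = 0.0533). Without 1 array, the 3 calls were lost in every fit, apart from that of Txnip without 4OHT replicate 2.

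**Figure D5:**
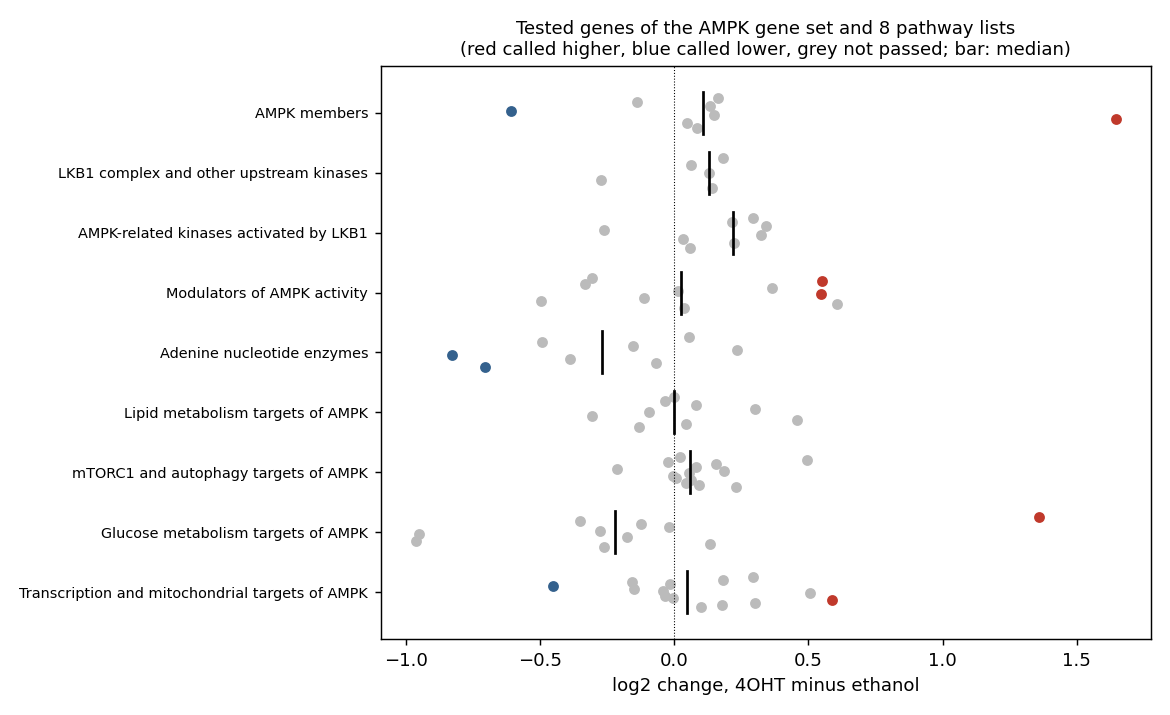
Log2 change, 4OHT minus ethanol (horizontal axis), of each tested gene in the AMPK gene set and in 8 pathway lists, with a bar at each median. Prkaa2 and Txnip are the points beyond 1, and list medians run from -0.27 for adenine nucleotide enzymes to 0.22 for the AMPK-related kinases.

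As a check of the labels, the Notch target Dtx1 was at 6.01 and 6.01 with 4OHT, against 9.41 and 9.43 with ethanol, and Hes1 and Ptcra changed by -1.39 and -2.23 on the log2 scale. All 9 measured T-lineage markers were above the floor, with summed log2 levels of 14.98 and 15.03 with 4OHT and 14.88 and 14.996 with ethanol. Single markers moved in both directions: Cd8a (0.83, adjusted p = 0.0347) and Cd247 (0.68, adjusted p = 0.0347) were higher with 4OHT, Cd3g (-0.57, adjusted p = 0.0356) was lower and 6 did not pass. These 3 calls were lost in each fit without 1 array, and those of Cd8a and Cd247 also with the mean of the probe sets. Muscle and liver markers, from tissues where α2 is abundant, had single-gene means of at most 5.67, with summed levels of 7.35 and 7.28 with 4OHT against 7.32 and 7.43 with ethanol, and 3 of 5 were at or above the floor. Of the other lineages, 2 of 4 B-cell and 1 of 5 myeloid and erythroid markers reached the floor. The 6 stromal, epithelial and endothelial markers summed to 8.93 and 9.09 with 4OHT against 8.37 and 8.42 with ethanol, with 2 at or above the floor. These were Pecam1, which was higher with 4OHT (0.93, adjusted p = 0.0165; kept without 1 array only in the fit without ethanol replicate 2), and Epcam, which did not pass (-0.23, adjusted p = 0.178). Pecam1, the brightest of this list, was at 8.54 and 8.74 with 4OHT against 7.65 and 7.78 with ethanol. The other markers of the list had changes from -0.25 to 0.02, so the higher sum came from Pecam1. The part of all these lineage markers in the changes above was not tested. In bulk RNA, fewer cells of a type and less RNA per cell cannot be told apart. Of the array controls, 18S RNA had a 3′ minus 5′ difference of 0.90 and 0.82 with 4OHT against 0.05 and 0.32 with ethanol, while that of Actb was 0.43 and 0.45 against 0.40 and 0.49. Its part in the results was not tested.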

How the data were processed

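Total RNA of the 4 samples was hybridised to Affymetrix arrays, per the labels' protocols. Per the submitters' processing notes, the authors applied RMA, which yields normalized log2 values, 1 for each probe set and array. No version of RMA is stated. That the scale is log2 was read from the range of 2.25 to 14.6. Arrays give no depth, and their number limits the precision. Of 45101 probe sets, 34945 non-control ones named 1 gene in the platform annotation. A gene was represented by its brightest probe set over the 4 arrays and tested if that mean reached the 40th percentile of these probe sets.

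Groups were compared in limma 3.58.1 under R 4.3.3 (lmFit, eBayes, two-sided, without a block), with Benjamini-Hochberg adjustment over 11581 genes. The fit was tested on simulated data. Probe sets of a member were described from a limma fit over all 34945. Members and lists were chosen with earlier results of these data known, the lists from textbook knowledge. From each list the called genes were named, at most 4, or else the 2 of lowest p. The members called, their 3 nearest profiles (clone and predicted-gene names left out) and 3 Notch readouts were also named. The 12 alternatives covered the filter, normalization, replicate block, each array left out, choice of probe sets and an intensity trend.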

Additional observations from a re-analysis of the deposited data

How the results depend on the processing

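Prkaa2 kept its call in all 12 alternatives, and Prkab2 kept it in 6 of the 11 that tested it. The number of the 8 genes called lower was 0 with the filter at the 60th percentile, where Prkab2 was not tested, and 0 with the mean of the probe sets, and it was 0 in each fit without 1 array. Signs turned for genes that never passed. Prkaa1 turned to -0.0061 after quantile normalization and to -0.065 without 4OHT replicate 2, and Camkk2 to -0.016 with the mean of the probe sets. In the other fits without 1 array the change of Prkaa1 stayed above 0, at 0.04 to 0.16. Over all genes, leaving out 1 array gave 9 to 125 higher and 12 to 66 lower genes, against 452 and 413 with all arrays, in fits with fewer samples. Among pathway list genes it gave 0 to 1 higher and 0 lower, and the mean of the probe sets gave 1 lower. An intensity trend gave 663 higher and 636 lower genes; the cause was not tested.

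The replicate numbers are shared between the groups, but nothing in the labels says that they pair samples. Same-numbered samples deviated together from their group means with r = 0.343 over tested genes (across genes, which are not independent replicates). With the replicate number as a block there were 1104 higher and 1031 lower genes, and 10 higher and 8 lower pathway list genes; Prkaa2 (adjusted p = 2.45e-05) and Prkab2 (adjusted p = 0.00284) kept their calls, and no other member passed. Of the list genes named in the text, Sik2, Ulk1, Fnip1, Slc2a1 and Pfkfb3 gained a call, with their directions kept; list genes not named also gained calls. Signal near background limits what can be said of Prkab2 and of the dimmest probe sets.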
